A study of Homo sapiens with 12 samples.

Results

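CLK1, CLK2, CLK3, CLK4, SRPK1, SRPK2, TRA2A and TRA2B were followed through a hypoxia time course in HCT116 cells, an established human colorectal cancer line. These 8 genes were chosen by name, and their transcripts were taken where the assembly matched a reference transcript exactly (class code =) or shared at least a splice junction with one (class code j). Of 184 such assembled transcripts, 75 had an FPKM (fragments counted per unit of transcript length and of sequencing depth) above 0.5 in at least 3 libraries, and these stood for 67 reference transcripts. All 8 genes were among the 15758 gene names that passed this filter. Cells were kept at 21% O2 (0 h) or moved to 1% O2 for 1, 2 or 24 h, beginning 24 h after plating, and 3 poly(A) libraries were made at each of the 4 time points, 12 in all. No genotype or drug differed between the groups, and all libraries came from this 1 line. The sources used here do not give the age of the 0 h cultures relative to those harvested at 24 h, so time in culture and time in hypoxia cannot be told apart. The labels number the replicates without saying what separates them, and the study calls them biological replicates; p-values measure only the spread between these libraries.

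CLK and SRPK proteins are the kinases that phosphorylate serine residues in the arginine-serine repeats of SR proteins, a family of splicing regulators. SRPK enzymes act largely in the cytoplasm and prime SR proteins for import into the nucleus, whereas CLK enzymes act in the nucleus and release SR proteins from storage speckles. TRA2A and TRA2B are SR-like proteins that bind purine-rich GAA repeats in exons and promote inclusion of those exons. Several genes of this group are known to control their own mRNA by splicing: CLK1 and CLK4 transcripts can skip an exon or keep the introns beside it, and TRA2 transcripts can take up a so-called poison exon that carries a stop codon.

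Exons at which isoforms of CLK1, CLK4, TRA2A and TRA2B part are shown because the isoforms described most fully further on differ there. Not all of the changes in isoform share fall on them, and in TRA2B none that passed does. Exon numbers refer to the main coding isoform of each gene. Exon 4 of CLK1 (ENST00000321356) and exon 4 of CLK4 (ENST00000316308) are both 91 bases long, which is not a multiple of 3, and both are coding. CLK1 exon 4 lies at chr2:201724848-201724938 and CLK4 exon 4 at chr5:178044345-178044435, both on the minus strand of GRCh37 (hg19). The lines give each exon 5′ to 3′ with 10 intron bases on either side, and the capitals mark the AG and GT of the splice sites.
CLK1 exon 4: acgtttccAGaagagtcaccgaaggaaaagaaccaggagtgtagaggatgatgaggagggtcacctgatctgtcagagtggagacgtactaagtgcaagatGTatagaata
CLK4 exon 4: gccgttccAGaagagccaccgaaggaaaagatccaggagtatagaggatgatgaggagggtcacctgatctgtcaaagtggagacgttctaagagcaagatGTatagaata

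The 2 exons are identical at 85 of 91 bases (93.4%). Reads of 100 bases are longer than this exon and extend beyond it. Whether the authors' alignment shared any between the 2 genes was not tested. The nonsense-mediated decay isoforms ENST00000432425 of CLK1 and ENST00000522136 of CLK4 skip exon 4, and the latter also has an added exon of 41 bases elsewhere. The retained-intron isoforms ENST00000473565 of CLK1 and ENST00000519583 of CLK4 keep introns 3 and 4 on either side of it. An isoform without exon 4 passed the filter for each of the 4 CLK genes. The exon that was skipped had 88 bases in CLK2 (ENST00000476983) and 97 bases in CLK3 (ENST00000569063, and ENST00000568488, which also lacks exon 5).

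TRA2B and TRA2A each have an annotated exon between exons 1 and 2 of the main coding isoform. It has 276 bases in TRA2B (chr3:185649365-185649640) and 301 bases in TRA2A (chr7:23561751-23562051), again on the minus strand. It is present in the nonsense-mediated decay isoforms ENST00000456380 of TRA2B and ENST00000538367 of TRA2A. The lines give each exon from its first base to the annotated stop codon, which is in capitals (chr3:185649560-185649640 and chr7:23561908-23562051).
TRA2B added exon: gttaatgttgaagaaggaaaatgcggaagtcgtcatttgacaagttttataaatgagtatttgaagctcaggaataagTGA
TRA2A added exon: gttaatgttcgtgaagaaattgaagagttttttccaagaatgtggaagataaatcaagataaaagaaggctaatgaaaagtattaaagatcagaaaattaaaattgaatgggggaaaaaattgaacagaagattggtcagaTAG

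The letters GAAGAA, a form of the GAA repeat that TRA2 proteins bind, were counted on the transcribed strand, overlaps included. The whole exon held 3 of them in TRA2B and 4 in TRA2A. At least 1 was present in 17.8% of 31451 annotated exons of 251 to 326 bases in protein-coding genes, at least 3 in 0.766% and at least 4 in 0.194%. Such a match describes the letters only.

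**Figure D1:**
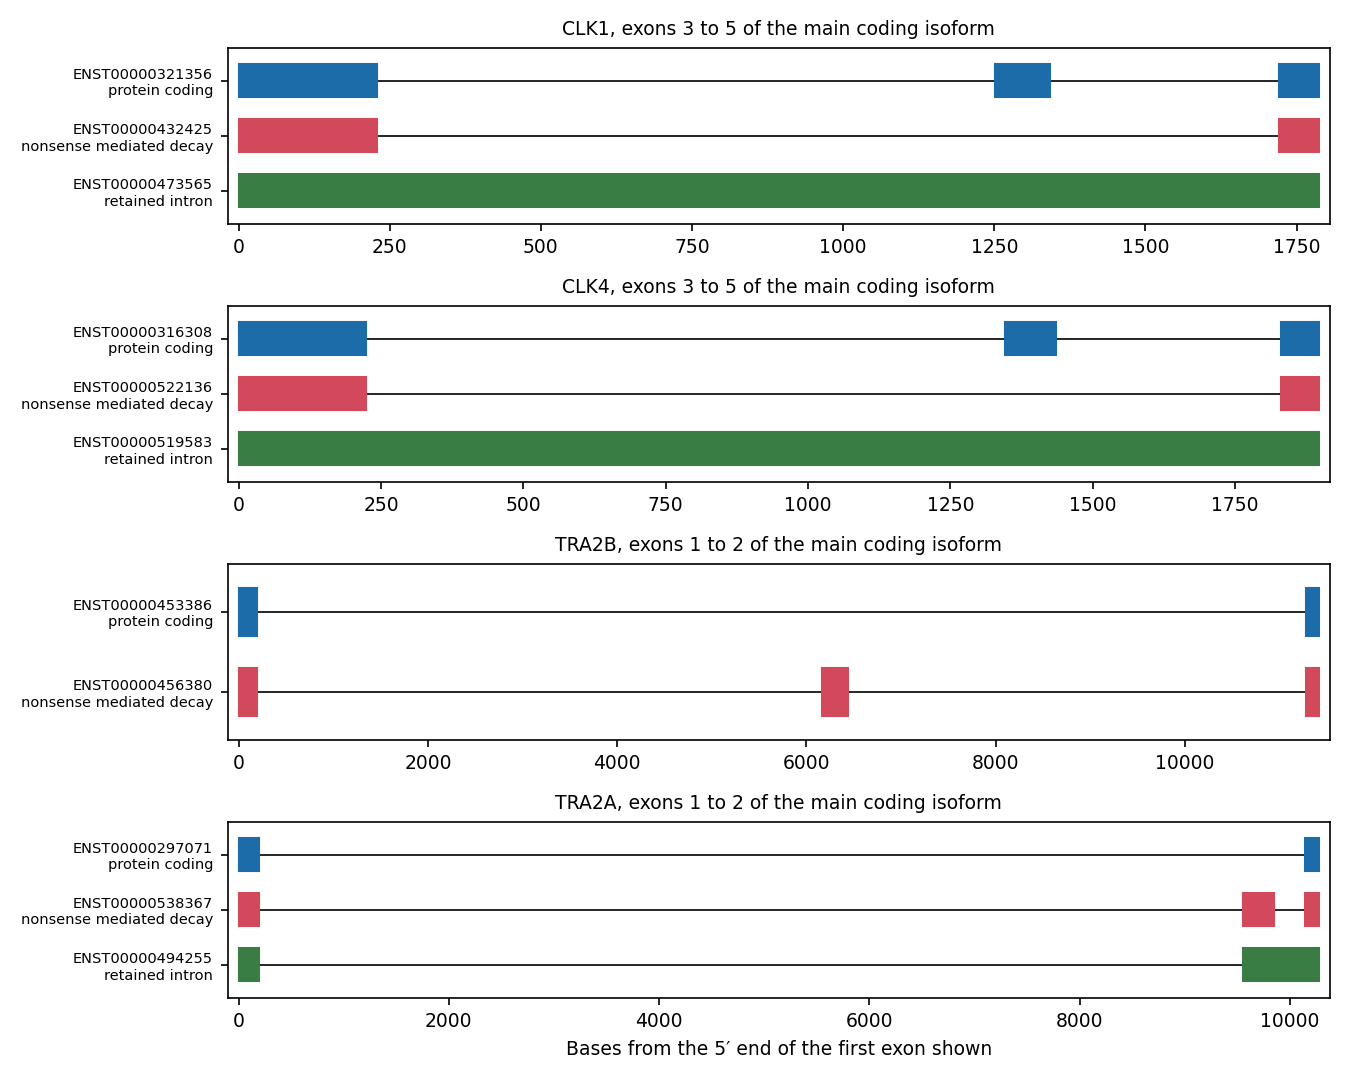
Exon models from GENCODE for the isoforms on which the results turn, drawn to scale in bases from the 5′ end of the first exon shown; boxes are exons and lines are introns. In CLK1 and CLK4 the middle exon is absent from the nonsense-mediated decay isoform and merged with both neighbouring introns in the retained-intron isoform, and in TRA2B and TRA2A an exon is added between exons 1 and 2.

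The deposited values were checked before use. All 7 genes of a hypoxia list (CA9, NDRG1, VEGFA, BNIP3, PGK1, ADM and EGLN3) were differentially expressed and higher at 24 h, with log2 fold changes from 1.94 to 5.40. Of 7 epithelial and colorectal markers 6 passed the filter, with KRT20 near 0 (at most 0.582 FPKM) and VIL1 below the filter. At 24 h CDH1 was differentially expressed and higher (log2 fold change 1.70), KRT20 (-0.79) and CDX2 (-0.42) fell, and EPCAM, KRT8 and KRT18 did not pass (-0.28 to -0.15). The part of these markers in the results was not tested. Of 7 markers of immune, stromal, endothelial and liver cells, COL1A1 alone passed (0.916 to 7.09 FPKM over the 12 libraries, higher at 24 h). Between 49072 and 52472 transcripts per library exceeded 0.5 FPKM. The depth of each library and read counts were not analysed here, so that no counting interval is given. Values were used as deposited, and the median gene had a log2 change of -0.09 from 0 h to 24 h.

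At 24 h CLK3 RNA was 3-fold higher than at 0 h, TRA2A and TRA2B RNA had fallen to about 0.4 of their starting level, and SRPK1 had fallen to 0.571 of it. CLK1, CLK2 and CLK4 were higher by 1.35- to 1.66-fold. Genes were tested by limma across all 12 libraries on log2(FPKM + 0.5), and the p-values adjusted by Benjamini-Hochberg over 15758 genes. Rise or fall means an adjusted p under 0.05, and differential expression an absolute log2 fold change above 1 with an adjusted p under 0.01. By the first criterion 4 of the 8 genes rose and 3 fell, beside 22.9% and 31.2% of all genes (54% in either direction). By the second, 1 rose and 2 fell, beside 8.34% and 10.5% of all genes (18.8% in either direction). The median log2 change was 0.34 over the 8 genes.

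No gene of the 8 passed either criterion at 1 h or 2 h, except that with the replicate number as a block CLK1 rose at 2 h (1 of the 8 in place of 0, where 1.42% of all genes passed). At 1 h 0.00635% of all genes passed either criterion. At 2 h 0.19% of all genes rose and 0.0762% fell (0.267% in either direction), and 0.0317% were differentially expressed, all of them higher. An unadjusted p under 0.05 was found for 0 of the 8 genes at 1 h, 5 at 2 h and 8 at 24 h, against 4.32%, 15% and 59.2% of all genes. Between 2 h and 24 h 2 genes rose and 3 fell, where 49% of all genes passed. In bulk RNA, fewer cells with a transcript and less RNA per cell cannot be told apart.

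**Figure D2:**
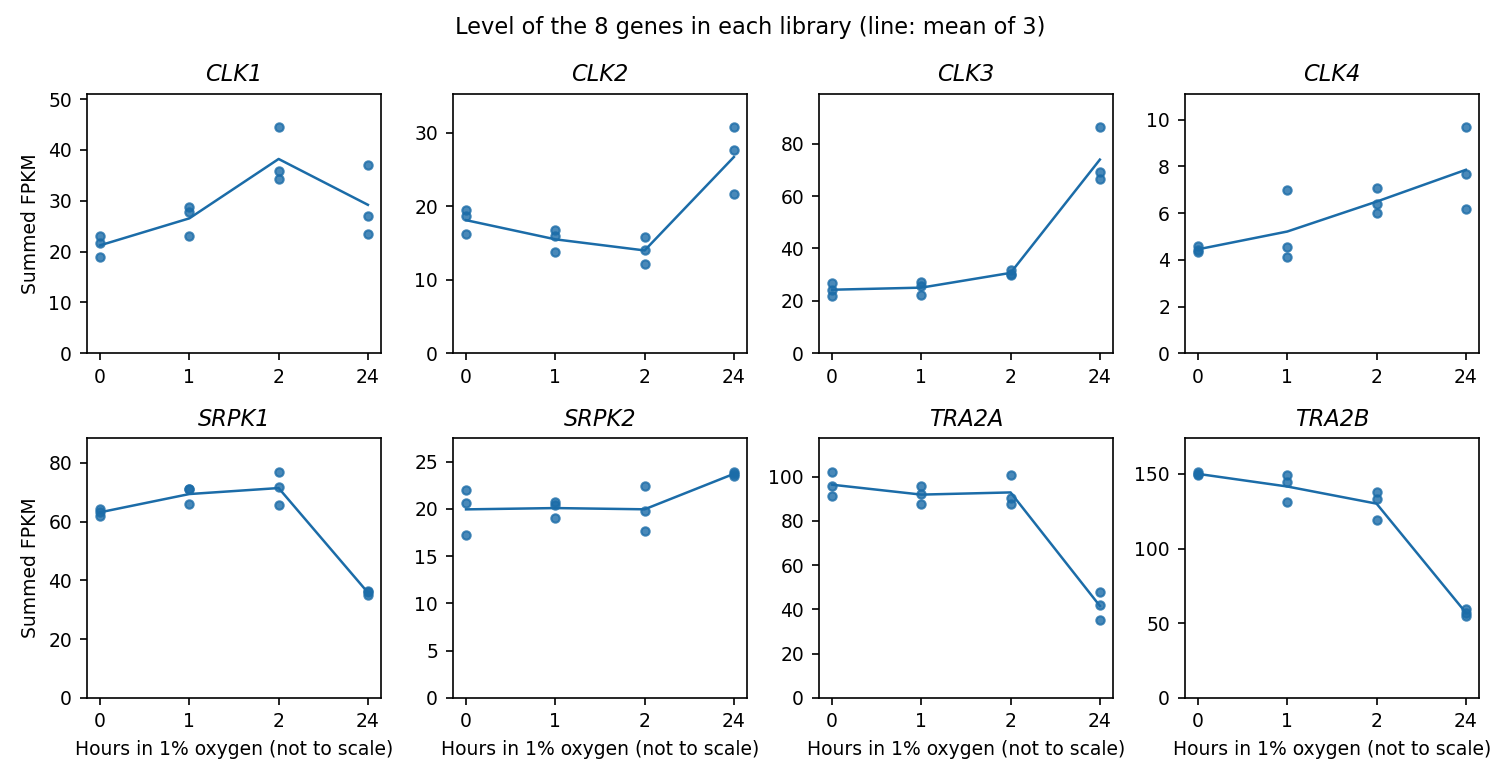
Summed FPKM of each gene in every library (points) with the mean of 3 libraries (line) at 0, 1, 2 and 24 h, each panel on its own linear axis from 0, with the time points evenly spaced. The 24 h points lie above all others for CLK2, CLK3 and SRPK2 and below all others for SRPK1, TRA2A and TRA2B.

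CLK3, a nuclear kinase of SR proteins, had the largest rise of the 8. Its summed level was 21.8, 24.0 and 26.9 FPKM at 0 h, 22.1, 27.2 and 25.8 at 1 h, 29.8, 30.3 and 31.9 at 2 h, and 86.2, 69.2 and 66.3 at 24 h. The 24 h libraries lay far above all others, and the 2 h libraries lay above the 0 h libraries without overlap. The log2 fold change at 24 h was 1.58 ± 0.12 (SE, adjusted p = 1.12e-06). At 2 h it was 0.34 ± 0.12, which did not pass (adjusted p = 0.231). From 2 h to 24 h CLK3 rose by a further 1.25 ± 0.12 (adjusted p = 7.26e-06). At 24 h CLK3 had the highest summed level of the 8 genes, having been 4th at 0 h. CLK3 overlaps EDC3 exons on the other strand, and a processed pseudogene of it is annotated (CLK3P2), as one is of CLK2 (CLK2P1).

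CLK1, which phosphorylates SR proteins in nuclear speckles, was highest at 2 h. It measured 18.9, 21.7 and 23.1 FPKM at 0 h, 28.8, 23.1 and 27.8 at 1 h, 34.3, 35.9 and 44.4 at 2 h, and 23.5, 37.1 and 27.1 at 24 h. The 2 h libraries stood above both 0 h and 1 h libraries, but the 24 h libraries were spread over a wide range. The log2 fold change of 0.83 ± 0.16 at 2 h just missed the threshold (adjusted p = 0.0678, unadjusted 0.000277). With the replicate number as a block the same change passed (0.83 ± 0.16, adjusted p = 0.0391). At 24 h the change was 0.43 ± 0.16 (adjusted p = 0.0427). The 24 h call was lost on leaving out 0 h replicate 1 (0.35, adjusted p = 0.144), 0 h replicate 2 (0.45, 0.0776), 1 h replicate 3 (0.43, 0.0509), 2 h replicate 2 (0.43, 0.0534), 24 h replicate 2 (0.25, 0.19) or 24 h replicate 3 (0.47, 0.0544). Conversely, the 2 h change passed without 24 h replicate 1 (adjusted p = 0.043) or without 24 h replicate 2 (0.0482).

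CLK4, the closest relative of CLK1, was the least abundant of the group. It measured 4.61, 4.42 and 4.31 FPKM at 0 h, 6.99, 4.54 and 4.10 at 1 h, 6.39, 7.06 and 6.02 at 2 h, and 7.69, 9.67 and 6.19 at 24 h. The 2 h and 24 h libraries both lay above 0 h without overlap. The log2 fold change was 0.50 ± 0.19 at 2 h (adjusted p = 0.261) and 0.73 ± 0.19 at 24 h (adjusted p = 0.00649), so that only the latter passed.

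CLK2, a nuclear SR protein kinase as well, had its lowest values at 2 h. Its level was 19.5, 16.2 and 18.7 FPKM at 0 h, 13.7, 16.8 and 16.0 at 1 h, 12.2, 14.0 and 15.8 at 2 h, and 21.7, 27.7 and 30.8 at 24 h. The 2 h values were all below and the 24 h values all above those at 0 h. The change at 2 h was -0.36 ± 0.15 (adjusted p = 0.273), and CLK2 rose by 0.54 ± 0.15 at 24 h (adjusted p = 0.00783). From 2 h to 24 h it rose by 0.90 ± 0.15 (adjusted p = 0.000292). The Cufflinks locus of CLK2 also holds SCAMP3, and the sum over the whole locus gave -0.24 at 24 h in place of the rise (adjusted p = 0.0423).

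SRPK1 and SRPK2, the cytoplasmic kinases, differed from each other at 24 h. SRPK1 measured 61.9, 63.3 and 64.2 FPKM at 0 h, 71.2, 70.9 and 66.0 at 1 h, 76.9, 71.6 and 65.7 at 2 h, and 34.9, 36.4 and 36.1 at 24 h. All 24 h libraries were close to each other and far below the rest. SRPK1 fell at 24 h (log2 fold change -0.81 ± 0.08, adjusted p = 6.96e-06), a change that is below the size limit for differential expression. SRPK2 measured 17.2, 20.6 and 22.0 FPKM at 0 h, 20.5, 19.1 and 20.7 at 1 h, 19.8, 17.7 and 22.5 at 2 h, and 23.7, 23.9 and 23.5 at 24 h. Its 24 h libraries were all above those at 0 h, but the change of 0.25 ± 0.11 did not pass (adjusted p = 0.0807). It did pass without 0 h replicate 3 (0.32, adjusted p = 0.0499), with no filter on FPKM (0.27, 0.0432) and after median-of-ratios scaling (0.36, 0.021). Exons of SRPK1 and SRPK2 overlap those of LHFPL5 and KMT2E on the opposite strand.

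The splicing activators TRA2A and TRA2B were the most abundant of the group at 0 h and fell most. TRA2A measured 91.3, 95.5 and 102 FPKM at 0 h, 92.1, 95.7 and 87.8 at 1 h, 90.4, 87.5 and 101 at 2 h, and 35.0, 41.8 and 47.8 at 24 h. TRA2B measured 149, 151 and 150 FPKM at 0 h, 149, 145 and 131 at 1 h, 138, 133 and 119 at 2 h, and 55.0, 59.3 and 56.8 at 24 h. In both genes every 24 h library was below every other library. TRA2A fell by 1.21 ± 0.11 on the log2 scale (adjusted p = 3.46e-06) and TRA2B fell by 1.39 ± 0.08 (adjusted p = 2.54e-07). TRA2B was already lower at 2 h without overlap, but that change of -0.21 ± 0.08 did not pass (adjusted p = 0.281).

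**Figure D3:**
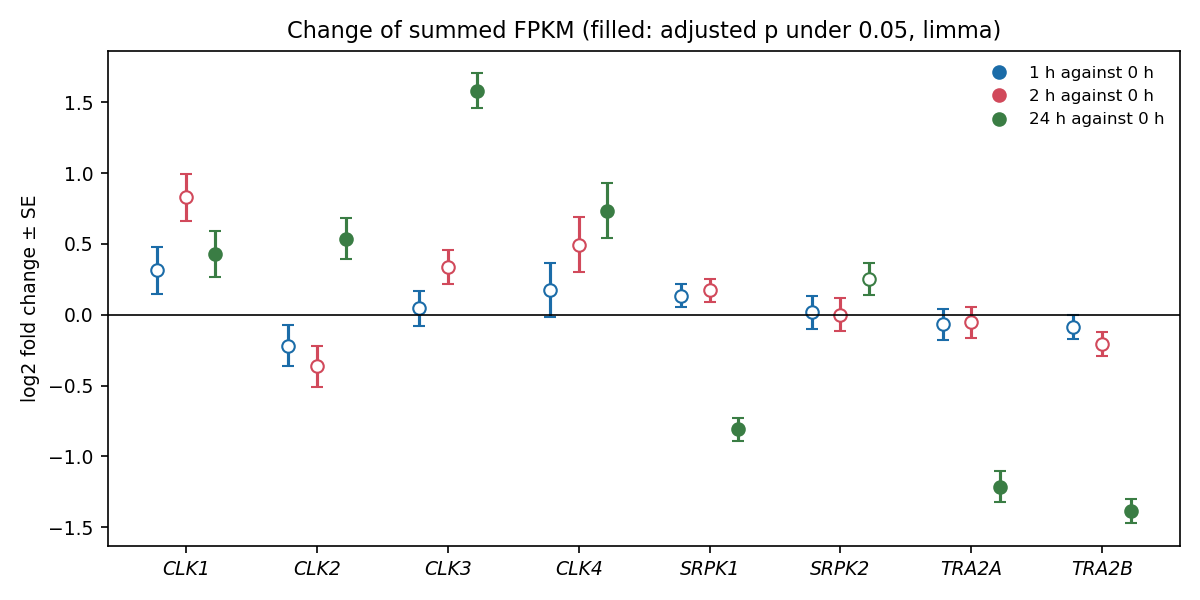
Log2 fold change of summed FPKM against 0 h with its SE (limma, n = 3 libraries per time point) at 1, 2 and 24 h; filled points have an adjusted p under 0.05. Filled points occur only at 24 h, from 1.58 for CLK3 to -1.39 for TRA2B.

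The order of levels changed accordingly. At 0 h it ran TRA2B (150 FPKM), TRA2A (96.3), SRPK1 (63.1), CLK3 (24.2), CLK1 (21.2), SRPK2 (19.96), CLK2 (18.1) and CLK4 (4.45), and the ranges of CLK3 and CLK1, of CLK1 and SRPK2, and of SRPK2 and CLK2 overlapped. At 24 h it ran CLK3 (73.9), TRA2B (57.1), TRA2A (41.5), SRPK1 (35.8), CLK1 (29.2), CLK2 (26.7), SRPK2 (23.7) and CLK4 (7.85). There each neighbouring pair from TRA2A to SRPK2 overlapped. The 8 genes together held 384 to 411 FPKM at 0 h and 288 to 305 FPKM at 24 h.

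The 3 differentially expressed genes were set beside the genes whose profile over the 12 libraries, as change from the gene's own 0 h mean, was most like theirs. Likeness was the root mean square difference on the log2 scale among 9876 genes with a mean of at least 5 FPKM. CLK3 lay closest to SLC38A2 (0.112), LMTK3 (0.115) and DOK4 (0.148). Among the genes closest to TRA2A were MTHFD1 (0.0973) and DLAT (0.104), and TRA2B lay closest to PRPF4 (0.0545), PAGR1 (0.0687) and RPA2 (0.08). TRA2A and TRA2B differed from each other by 0.172, which made TRA2B the 142nd closest gene to TRA2A and TRA2A the 231st closest to TRA2B.

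The share of a gene's summed FPKM held by each reference transcript was then tested by limma, with adjustment over 44285 transcripts. At 1 h and at 2 h no share passed, among these genes or any others, whereas 8 and 7 of the 67 shares had an unadjusted p under 0.05 (5.23% and 6.94% of all shares). At 24 h 14 of the 67 changed, 11 upwards and 3 downwards, where 4.42% of all shares rose and 3.3% fell (7.72% in either direction). Among the 67, 7 of 23 retained-intron transcripts changed, all upwards, 3 of 8 nonsense-mediated decay transcripts (1 up and 2 down) and 3 of 26 coding transcripts (2 up and 1 down). Over all genes 7.84% of retained-intron transcripts gained share and 1.55% lost it (9.39% in either direction), while 4.5% and 3.31% of nonsense-mediated decay transcripts and 3.56% and 4.07% of coding transcripts did. Gains thus outnumbered losses among the retained-intron transcripts of all genes as well. Of the 14, CLK4 ENST00000519583, SRPK1 ENST00000505885, TRA2A ENST00000486934 and CLK3 ENST00000395066 would not have passed the FPKM filter without their 24 h libraries. For these a rise at 24 h was favoured by the filter. The 14 became 8, 9 and 5 without 0 h replicates 1, 2 and 3 respectively, and 10 with the replicate block. Shares of 1 gene sum to a fixed total and so do not change independently. A second test of the whole gene, diffSplice, found changed isoform usage in 6 of the 8 genes at 24 h, in all but CLK2 and SRPK2, where 24.7% of all genes passed. It found 0 of the 8 at 1 h and at 2 h (0.641% and 1.9% of all genes), with 3 and 2 at an unadjusted p under 0.05 (9.53% and 13.9% of all genes), and it made too many false calls on simulated data.

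In CLK1 and CLK4 the isoform that skips exon 4 lost share and the isoform that keeps introns 3 and 4 gained share. The intron-keeping isoform of CLK4 passed the FPKM filter only through its 24 h libraries, so its gain was favoured by the filter. For CLK1, the skipped isoform held 24.5%, 20.02% and 29.8% of FPKM at 0 h, 9.72%, 4.04% and 2.53% at 1 h, 13.9%, 13.5% and 7.17% at 2 h, and 14.7%, 7.33% and 12.2% at 24 h. Every library in hypoxia was below every 0 h library. The share fell by 13.4 ± 3.44 percentage points at 24 h (SE, adjusted p = 0.045). The difference at 1 h was larger, -19.3 ± 3.44 points, but it did not pass against the whole table (adjusted p = 0.392, unadjusted 0.000248). The 24 h call held in 3 of 17 other settings, where the difference ranged from -15.8 to -10.9 points, and its adjusted p from 0.0424 to 0.162. It was lost without any single library other than 0 h replicate 2.

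The CLK1 isoform that keeps both introns held 6.91%, 8.0% and 3.62% of FPKM at 0 h, 9.01%, 8.43% and 5.31% at 1 h, 8.52%, 5.75% and 8.94% at 2 h, and 16.9%, 22.4% and 32.0% at 24 h. The 24 h libraries stood above all others. It rose by 17.6 ± 3.41 points (adjusted p = 0.0159), although without 0 h replicate 3 the rise of 16.3 points missed the threshold (adjusted p = 0.0551). The main coding isoform led in 11 of the 12 CLK1 libraries, with 49.6% to 60.6% at 0 h and 72.2% to 85.2% at 1 h. In 24 h replicate 3 the intron-keeping isoform led with 32.0%, before the coding isoform with 28.9%. Summed over coding isoforms, CLK1 measured 11.3 to 13.6 FPKM at 0 h, 16.7 to 23.6 at 1 h, 20.4 to 26.8 at 2 h and 9.10 to 22.4 at 24 h. The coding level was thus above the 0 h range in every 1 h and 2 h library, and on both sides of it at 24 h.

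For CLK4, the isoform that skips exon 4 held 30.2%, 28.1% and 43.3% of FPKM at 0 h, 5.70%, 15.2% and 9.15% at 1 h, 16.4%, 15.5% and 4.01% at 2 h, and 1.36%, 6.44% and 8.57% at 24 h. Its own level was 1.24 to 1.87 FPKM at 0 h and at most 1.09 FPKM in any later library. As in CLK1, its share in every hypoxia library lay below those at 0 h. It fell by 28.4 ± 4.92 points at 24 h (adjusted p = 0.0101), and this call was lost only when the 6 libraries of the contrast were fitted alone (adjusted p = 0.0684). The differences at 1 h and 2 h were -23.9 ± 4.92 and -21.9 ± 4.92 points and did not pass (adjusted p = 0.466 and 0.358). The isoform that keeps introns 3 and 4 held 2.00%, 3.14% and 1.16% at 0 h and 10.6%, 6.16% and 12.2% at 24 h, and 1 h replicate 1 with 6.31% lay within the 24 h range. It rose by 7.56 ± 1.58 points (adjusted p = 0.0208), a call held in 11 of 16 other settings. The call was lost with no filter on FPKM (7.16, adjusted p = 0.069) and in the fit of 6 libraries (0.108). It was also lost without 0 h replicate 1 (7.51, 0.0653), 0 h replicate 3 (7.09, 0.0659) or 24 h replicate 1 (7.10, 0.0516). The isoform measured 0.0501 to 0.139 FPKM at 0 h and 0.596 to 0.813 FPKM at 24 h. Only 24 h libraries exceeded 0.5 FPKM, so it passed the filter through the group in which it was higher. The coding isoform of CLK4 measured 2.14 to 2.40 FPKM at 0 h, 3.00 to 4.60 at 1 h, 4.91 to 5.25 at 2 h and 3.83 to 5.78 at 24 h, all later libraries being above the 0 h range. A short retained-intron transcript of 857 bases, ENST00000520199, was unsteady, with 21.3%, 16.8% and 0% of FPKM at 0 h and 30.1%, 27.6% and 17.4% at 24 h (adjusted p = 0.336).

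**Figure D4:**
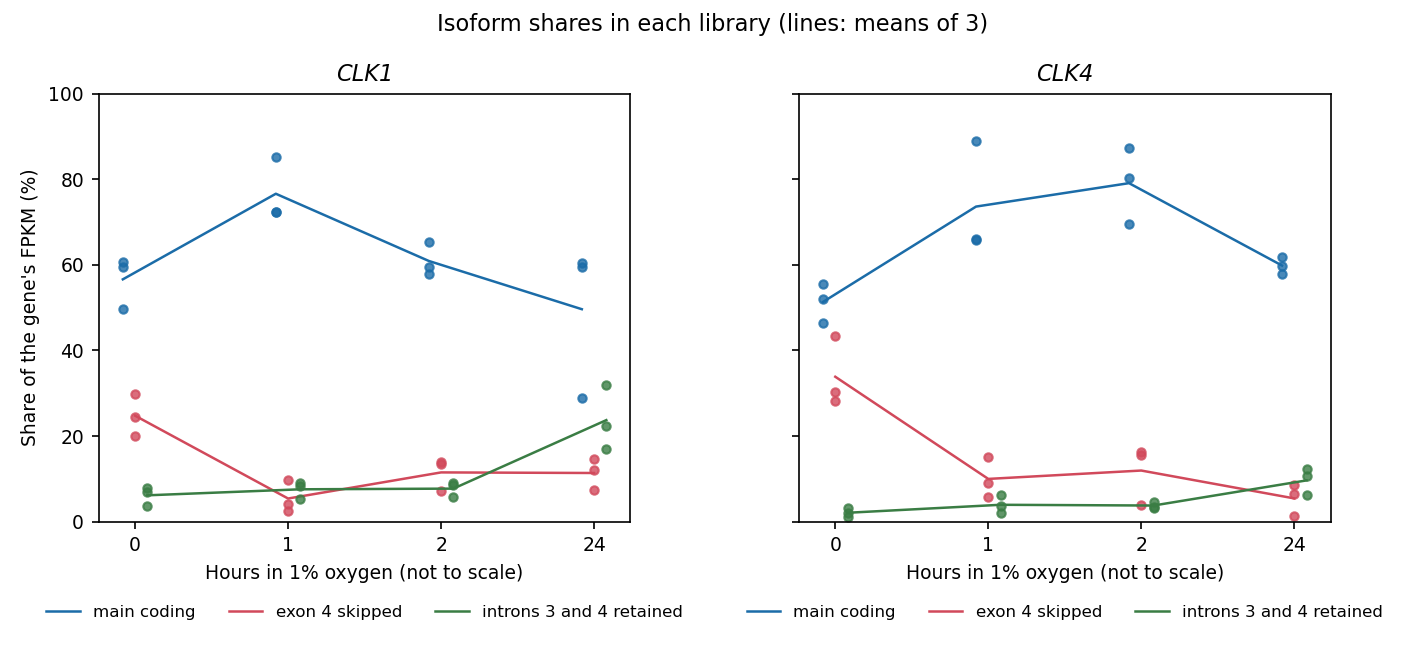
Share of the summed FPKM of CLK1 and CLK4 held by the main coding isoform, the isoform without exon 4 and the isoform with introns 3 and 4, in percent, per library (points) with means of 3 (lines); time points are evenly spaced. In both genes the mean exon-skipping share is highest at 0 h and the mean intron-keeping share at 24 h.

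The same exon gave a weaker picture in CLK2 and CLK3. Isoforms without exon 4 held a mean of 15.0% ± 1.06 of CLK2 FPKM at 0 h and 10.8% ± 1.77 at 24 h (SD, n = 3), but 2 h replicate 2 reached 27.2%. In CLK3 they held 11.4% ± 8.10 at 0 h and 10.0% ± 3.73 at 24 h, within the spread of the libraries. CLK3 isoforms that keep intron 3 or intron 4 held 6.0% ± 1.7 at 0 h and 11.6% ± 1.44 at 24 h. One of these, ENST00000454830, which keeps intron 3, rose from 4.52%, 3.88% and 2.65% to 7.16%, 8.02% and 6.69%, a change of 3.61 ± 0.87 points (adjusted p = 0.0346) that held in 6 of 17 other settings. The minor coding transcript ENST00000395066 rose by 1.23 ± 0.31 points (adjusted p = 0.0412), a call held in 4 of 17. It was lost with no filter on FPKM (adjusted p = 0.0535). This transcript measured 1.16 to 1.57 FPKM at 24 h and at most 0.326 FPKM before. It thus passed the filter only through the 24 h libraries, the group in which it was higher. The main coding isoform ENST00000345005 led in all 12 CLK3 libraries, and its own level was 12.04 to 13.3 FPKM at 0 h and 35.7 to 54.4 FPKM at 24 h. From 2 h to 24 h 10 of the 67 shares changed (5.2% of all shares), 7 upwards and 3 downwards. The 10 became 2, 3 and 4 without 2 h replicates 1, 2 and 3 respectively, 6 without 24 h replicate 2 and 6 with the replicate block. Of the 10, the retained-intron transcripts ENST00000562626 and ENST00000568232 of CLK3 fell by 2.99 ± 0.57 and 4.93 ± 1.12 points (adjusted p = 0.0186 and 0.0359). No CLK2 share changed. Its leading isoform, the coding ENST00000368361, held 33.6% to 49.2% of FPKM over the 12 libraries, and the other main coding isoform ENST00000361168 held 23.5% ± 4.98 at 0 h and 28.2% ± 5.11 at 24 h. A CLK2 transcript without a defined coding sequence, ENST00000484699, varied from 3.60% to 15.5% among the 0 h libraries alone.

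In TRA2A the main coding isoform lost share at 24 h, and several transcripts with the added exon gained share. The main isoform measured 82.2 ± 5.82 FPKM at 0 h and 27.2 ± 4.47 FPKM at 24 h (SD, n = 3). ENST00000297071 held 86.8%, 82.1% and 87.1% of FPKM at 0 h, 88.2%, 84.4% and 87.7% at 1 h, 87.9%, 86.1% and 87.8% at 2 h, and 67.0%, 62.3% and 67.4% at 24 h. Its 24 h values were all lower than any other. It fell by 19.8 ± 2.05 points (adjusted p = 0.00115), the only one of the 14 calls held in all 17 other settings. The nonsense-mediated decay isoform ENST00000538367 held at most 0.530% at 0 h, 0%, 3.03% and 1.12% at 1 h, at most 0.337% at 2 h, and 8.75%, 9.58% and 3.46% at 24 h. The lowest 24 h library was thus close to 1 h replicate 2. The share rose by 7.05 ± 1.38 points (adjusted p = 0.0163). That call held in 13 of 17 other settings. It was lost without 0 h replicate 1 (6.98, adjusted p = 0.0538) or 0 h replicate 2 (6.96, 0.0519). The same held with no filter on FPKM (6.93, 0.0508) and in the fit of 6 libraries (0.109).

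The retained-intron isoform ENST00000494255 joins the added exon to exon 2 by keeping the intron between them. It held 3.20%, 2.07% and 1.81% at 0 h and 9.74%, 7.36% and 11.8% at 24 h, a rise of 7.26 ± 1.04 points (adjusted p = 0.00459). In share, ENST00000490942 rose by 4.77 ± 1.04 points, ENST00000392502 by 3.15 ± 0.60 and ENST00000486934, which keeps intron 7, by 1.58 ± 0.35 (adjusted p = 0.0245, 0.0145 and 0.0269). In FPKM, the coding transcript ENST00000392502 was at 2.30 ± 0.37 at 0 h and 2.28 ± 0.26 at 24 h. ENST00000490942 was at 2.56 ± 0.68 and 3.15 ± 1.28. Both differences lay within the spread, and these shares rose as the summed level of TRA2A fell. ENST00000494255 went from 2.25 ± 0.58 to 4.04 ± 1.38 FPKM and ENST00000538367 from 0.22 ± 0.28 to 2.91 ± 1.18 FPKM (SD, n = 3). The call for ENST00000490942 held in 10 of 17 other settings and was lost without 0 h replicate 1 (4.85 points, adjusted p = 0.0686), 0 h replicate 2 (4.43, 0.0798), 0 h replicate 3 (5.03, 0.0546), 24 h replicate 2 (3.69, 0.054) or 24 h replicate 3 (4.52, 0.0602). That for ENST00000486934 held in 10 of 16 and was lost without 0 h replicate 1 (1.64, adjusted p = 0.0684), 2 (1.59, 0.0703) or 3 (1.504, 0.0778). It was also lost with no filter on FPKM (0.0596) and with the replicate block (0.0527). ENST00000486934 measured 0.0962 to 0.327 FPKM at 0 h and 0.428 to 1.10 FPKM at 24 h. It would not have passed the filter without its 24 h libraries. The call for ENST00000392502 held in 15 of 17 and was lost without 0 h replicate 3 (2.86, adjusted p = 0.0508). The 5 isoforms of TRA2A whose GENCODE models hold the added exon in whole or part together had 10.1%, 8.18% and 8.44% of FPKM at 0 h and 30.9%, 33.7% and 29.2% at 24 h. The deposited lengths of ENST00000538367 (1402 bases) and ENST00000392502 (1824 bases) differ from those of the GENCODE models (2142 and 2229 bases). The other 3 isoforms had 6.29% ± 0.96 at 0 h and 18.4% ± 2.56 at 24 h (SD, n = 3).

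In TRA2B the isoform with the poison exon led in every library. ENST00000456380 held 39.3%, 38.1% and 36.1% of FPKM at 0 h, 40.5%, 43.9% and 42.6% at 1 h, 36.5%, 35.3% and 37.3% at 2 h, and 41.0%, 43.9% and 38.4% at 24 h. The 1 h libraries lay above those at 0 h and 2 h. The 0 h and 24 h libraries overlapped, and the difference of 3.21 ± 2.41 points at 24 h did not pass (adjusted p = 0.482). Its level nevertheless went from 54.1 to 58.6 FPKM at 0 h to 21.8 to 26.0 FPKM at 24 h, along with that of the whole gene. The main coding isoform ENST00000453386 held 30.7%, 26.4% and 29.8% at 0 h and 24.4%, 22.1% and 25.7% at 24 h, a difference of -4.88 ± 2.45 points (adjusted p = 0.276). The 1 share of TRA2B that changed was that of the retained-intron transcript ENST00000492417, which rose from 2.27%, 1.97% and 1.95% to 3.47%, 4.45% and 4.78% (2.17 ± 0.41 points, adjusted p = 0.0145). Its own level was 3.09 ± 0.25 FPKM at 0 h and 2.42 ± 0.45 FPKM at 24 h (SD, n = 3), and the call was lost with no filter on FPKM (adjusted p = 0.0566) and in the fit of 6 libraries (0.119). In SRPK1, likewise, the 1 change was in a retained-intron transcript, ENST00000505885, from 0%, 0.798% and 0.147% to 1.97%, 1.40% and 2.50% (1.64 ± 0.33 points, adjusted p = 0.0175). That call held in 13 of 16 other settings. It was lost in the fit of 6 libraries (adjusted p = 0.117) and without 0 h replicate 1 (1.49, 0.0653) or 0 h replicate 3 (1.56, 0.0569). ENST00000505885 measured 0 to 0.505 FPKM at 0 h and 0.510 to 0.904 FPKM at 24 h. It would not have passed the filter without its 24 h libraries, the group in which it was higher. The remaining isoforms of at least 10% in TRA2B, SRPK1 and SRPK2, and all others of SRPK2, showed no change that passed. The leading SRPK1 isoform ENST00000361690 held 63.3% ± 5.06 of FPKM at 0 h and 62.3% ± 3.73 at 24 h (SD, n = 3), next to the retained-intron transcript ENST00000513367 with 25.1% ± 3.11 and 19.1% ± 7.18 and the coding ENST00000373825 with 8.85% ± 3.71 and 14.5% ± 4.63. The leading SRPK2 isoform ENST00000393651 held 57.1%, 55.5% and 62.7% at 0 h and 66.4%, 65.1% and 71.9% at 24 h, without overlap, but its difference of 9.37 ± 3.32 points did not pass (adjusted p = 0.124). ENST00000489828 of SRPK2 held 18.6% ± 3.58 and 14.3% ± 4.39. In TRA2B the coding isoforms ENST00000259043 and ENST00000382191 held 13.6% ± 1.2 and 13.1% ± 2.7 at 0 h. At 24 h they varied between libraries, the former from 2.87% to 15.1% and the latter from 6.89% to 22.8%.

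**Figure D5:**
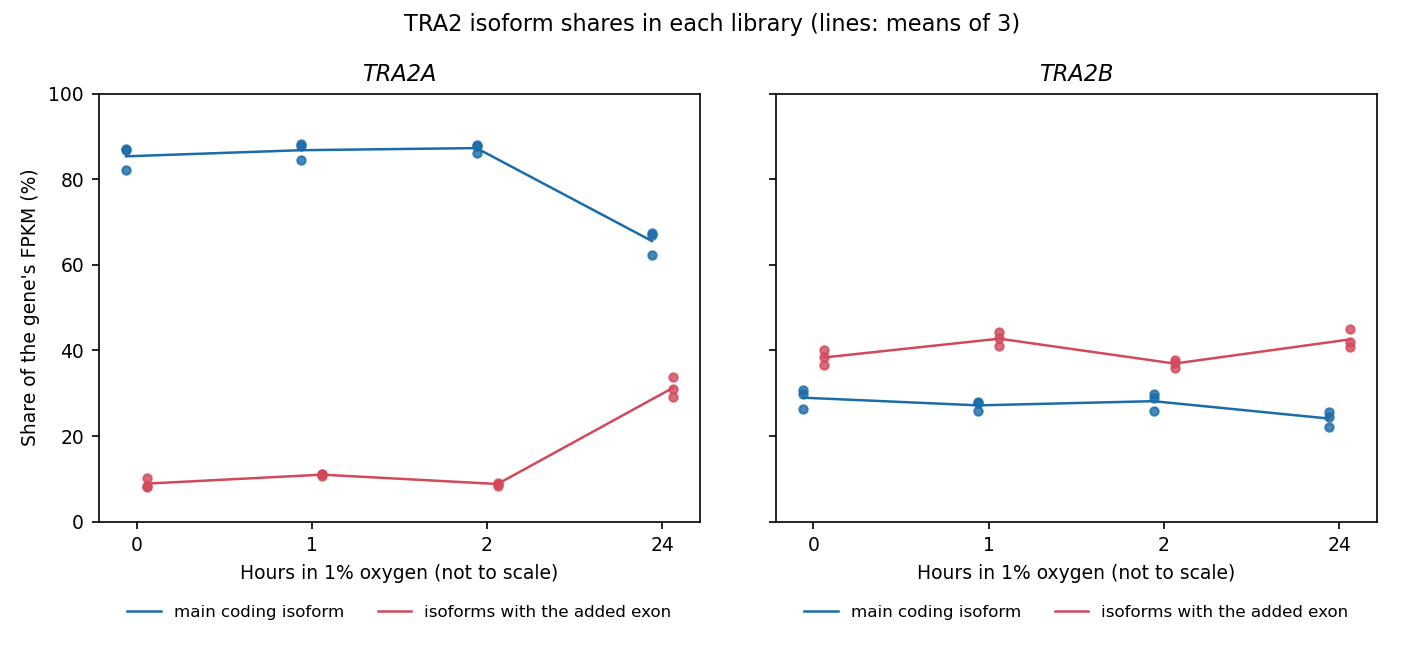
Share of the summed FPKM of TRA2A and TRA2B held by the main coding isoform and by isoforms with the added exon, in percent, per library (points) with means of 3 (lines); time points are evenly spaced. The TRA2A lines approach each other at 24 h, whereas in TRA2B the isoforms with the added exon are above the main coding isoform at every time point.

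The noncoding share is the share of FPKM in transcripts of the types nonsense-mediated decay, retained intron and other noncoding. Transcripts of the first type have an annotated coding sequence with a stop codon but are counted here. This share was tested across 5989 genes. At 24 h it rose for 2 of the 8, TRA2A and TRA2B, where 7.65% of all genes rose and 2.97% fell. TRA2A went from 10.5%, 15.2% and 11.1% at 0 h to 26.4%, 32.9% and 27.4% at 24 h, a rise of 16.6 ± 2.67 points (adjusted p = 0.00537). Its noncoding level was 11.8 ± 2.51 FPKM at 0 h and 12.02 ± 2.43 FPKM at 24 h (SD, n = 3), a difference within the spread of the libraries, and its coding level was 84.5 ± 5.45 FPKM at 0 h and 29.5 ± 4.63 FPKM at 24 h. TRA2B went from 43.0%, 40.8% and 39.1% to 47.6%, 51.2% and 48.6%, a rise of 8.20 ± 2.23 points (adjusted p = 0.0443). In TRA2B both parts were lower, the coding level going from 88.6 ± 3.18 to 29.0 ± 0.21 FPKM and the noncoding level from 61.4 ± 2.81 to 28.1 ± 2.14 FPKM. The TRA2B call was lost in every other setting tried, leaving out any 1 of the 12 libraries included (6.73 to 9.22 points, adjusted p = 0.0504 to 0.192).

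From 2 h to 24 h, a comparison with the same 24 h libraries, TRA2A rose by 18.4 ± 2.67 and TRA2B by 9.45 ± 2.23 points (adjusted p = 0.00389 and 0.0309), where 6.11% of all genes rose. The TRA2B call was lost without 2 h replicate 1 (adjusted p = 0.0974), 2 (0.0853) or 3 (0.0771), 24 h replicate 2 (0.097) or 1 h replicate 3 (0.0507), and with the replicate block (0.0538). In the fit of the 6 libraries alone neither gene passed (TRA2A 0.0749 and TRA2B 0.144).

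For the kinases the noncoding share did not pass at any time, nor did that of any gene at 1 h or 2 h by limma. At an unadjusted p under 0.05, 2 of the 8 genes were found at 1 h (CLK1 and CLK4) and 1 at 2 h (CLK4), all lower, where 3.57% and 4.56% of all genes were lower (5.46% and 7.33% in either direction). CLK4 had 53.5%, 48.1% and 44.4% at 0 h, 34.1%, 33.9% and 11.1% at 1 h, 19.7%, 30.4% and 12.8% at 2 h, and 42.1%, 40.2% and 38.2% at 24 h. All values in hypoxia were below the 0 h range, with the largest difference at 2 h (-27.7 ± 6.41 points, adjusted p = 0.435, unadjusted 0.00151). CLK1 had 37.5% to 48.7% at 0 h, 14.8% to 27.8% at 1 h and 38.2% to 66.4% at 24 h. The difference was -18.8 ± 7.16 points at 1 h (adjusted p = 0.789) and 5.86 ± 7.16 points at 24 h (adjusted p = 0.675), and without 24 h replicate 3 the latter was -3.32 points. SRPK2 stayed below 10% noncoding in every library (0% to 7.72%).

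The proteins that these kinases phosphorylate, or that share their function, were counted from lists chosen for this comparison. Of 12 SR proteins 11 were tested, of which 9 fell and 1 rose at 24 h, where 31.2% of all genes fell and 22.9% rose. Of the 11, 7 were differentially expressed and lower, beside 10.5% of all genes. The median log2 change over these was -1.17. SRSF2 (-2.08 ± 0.12), SRSF7 (-1.89 ± 0.13), SRSF6 (-1.59 ± 0.08) and SRSF1 (-1.43 ± 0.07) changed most, with adjusted p between 5.35e-08 and 4.55e-07. Of 24 SR-related proteins 15 fell and 2 rose, with a median of -0.41, led by BCLAF1 (-1.88), LUC7L (-0.97), SCAF8 (-0.88) and U2AF2 (-0.87). Of 24 hnRNP proteins, which often oppose SR proteins at splice sites, 20 fell and 2 rose, with a median of -0.56, led by HNRNPM (-1.95), HNRNPAB (-1.91), HNRNPDL (-1.38) and HNRNPU (-1.36). Other kinases, phosphatases and the importer of SR proteins had 6 of 18 lower and 2 higher, with a median of -0.15, beside 31.2% and 22.9% and a median of -0.09 over all genes. Among them PPP1R8, a regulator of the phosphatase PP1, changed by -0.93 and the splicing kinase PRPF4B by -0.92, followed by CDK11B (-0.84) and CDK11A (-0.63). At 1 h 0 genes of these 4 lists passed in limma, with 0 to 2 per list at an unadjusted p under 0.05, and at 2 h 1 SR-related gene did.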

How the data were processed

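The authors sequenced strand-specific poly(A) libraries as 100-base read pairs. According to the methods they aligned reads with MapSplice 2.1.4 to hg19, assembled transcripts per sample with Cufflinks 2.2.0 and merged them with Ensembl release 74; the submitters' processing notes also name CASAVA 1.8.2. The deposited values are FPKM per assembled transcript and library, with no stated scaling between libraries, so that a shift in total RNA composition can move all values of a library.

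Transcripts of class code = or j were kept where FPKM exceeded 0.5 in at least 3 libraries, as in the methods, and summed per reference transcript and per gene name. Transcript identifiers linked the deposited transcripts to types and exon models of GENCODE (release 44, GRCh37 mapping); of the 67 transcripts, 65 had a model, 52 of them with the deposited length, and 2 (both of CLK3) had none and count as neither coding nor noncoding. Transcripts without a defined coding sequence count as noncoding. limma 3.58.1 (lmFit and eBayes with trend, diffSplice) in R 4.3.3 fitted all 12 libraries, with tests two-sided and adjusted by Benjamini-Hochberg. Python 3.11.15 (pandas 2.3.3, numpy 2.4.6) made the tables and matplotlib 3.10.9 the plots. On simulated data the gene test recovered nearly all changes with a false share close to its threshold, the share test missed most changes and its false share was somewhat above its threshold, and diffSplice made many more false calls than its threshold allows; the noncoding test was not simulated by itself. Deviations of same-numbered libraries at 0 h and 2 h correlated in every pair (r = 0.277, 0.128 and 0.402), so that the numbers were taken as a pairing there, from the data alone; in the other comparisons tested at least 1 pair was below 0.1.

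The 8 genes and all lists were chosen with earlier results of these data known, and an adjustment over a list alone is therefore not given. Transcripts were named if they held at least 10% of FPKM on average at any time or changed in share. From the other lists the 4 genes with the largest change among those past an adjusted p of 0.05 at 24 h were named, and 3 alike genes for each differentially expressed gene, of which 1 is not reported here. Alternatives covered the FPKM filter, pseudocount, class code, scaling, locus sums, the replicate block, a fit of 6 libraries and leaving out each library. Sums of isoforms by exon were formed after the values were seen and were not tested.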

Additional observations from a re-analysis of the deposited data

How the results depend on the processing

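The 3 differentially expressed genes at 24 h, CLK3, TRA2A and TRA2B, had log2 changes of 1.47 to 1.70, -1.32 to -1.10 and -1.48 to -1.27 over 22 other settings each, and CLK2, CLK3, CLK4, SRPK1, TRA2A and TRA2B passed in all 22, CLK2 once in the opposite direction. CLK1 passed in 12 of 22 (0.25 to 0.57, adjusted p = 0.0129 to 0.19) and SRPK2 in 3 of 22. Median-of-ratios scaling moved the median change of all genes from -0.09 to 0.01, TPM over transcripts of at least 300 bases moved it to -0.18, and higher genes made up 42.3%, 50% and 35.7% of those called.

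Same-numbered libraries did not deviate together throughout: r was -0.113 to 0.452 over 18 pairs, above 0.1 in 11, and 10 of the 12 libraries correlated best with libraries of their own number. Between 0 h and 2 h every same-numbered pair was above 0.1, so that the fit with the replicate block is the paired result there. Elsewhere the correlation is a hint from the data only. With the replicate block CLK1 passed at 2 h (1 of the 8 genes in place of 0), 1 noncoding share in place of 2 passed at 24 h and likewise from 2 h to 24 h, and 6 member shares in place of 10 passed from 2 h to 24 h. At 24 h against 0 h 10 member shares passed with the block in place of 14. The calls lost were CLK1 ENST00000432425 (adjusted p = 0.0576), CLK3 ENST00000454830 (0.0554) and ENST00000395066 (0.0688), and TRA2A ENST00000486934 (0.0527).

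Member shares called at 24 h numbered 14, but 6 with no filter, 1 in the fit of 6 libraries and 5 to 12 on leaving out 1 library; from 2 h to 24 h they numbered 10, but 3, 2 and 2 to 11. Among all transcripts the 3420 calls became 1904, 371 and 1661 to 3060, and the 636 noncoding shares 396, 126 and 308 to 606. The 2 noncoding calls of the 8 genes became 1 with FPKM above 1, the arcsine square root, class code = only, no filter or any 1 library left out (1 to 1), and 0 in the fit of 6 libraries; from 2 h to 24 h they became 1 with no filter, 0 in the fit of 6 libraries, and 1 to 2 on leaving out 1 library. Members past the gene threshold at 2 h were 0 to 1 on leaving out 1 library. For diffSplice, member counts were 1 at 1 h with FPKM above 1 or with no filter, 1 at 2 h with no filter, 0 to 1 at 2 h on leaving out 1 library, and no filter gave 5587 in place of 2391 calls among all genes.

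Apart from CLK2 at 24 h, the changes that reversed in sign did not pass. At 1 h these were CLK3 without 0 h replicate 1 (-0.028) or 1 h replicate 2 (-0.017; one library left out, -0.028 to 0.13), CLK4 without 1 h replicate 1 (-0.039 to 0.31), and SRPK2 with class code = only (-0.012), without 0 h replicate 1 or 1 h replicate 3 (-0.0066; -0.083 to 0.090). At 2 h they were SRPK2 with TPM (-0.013), class code = only (-0.026), without 0 h replicate 1 (-0.098) or 2 h replicate 3 (-0.085; -0.098 to 0.083). At 24 h they were the noncoding shares, in percentage points, of CLK1 without 24 h replicate 3 (-3.32 to 10.8), CLK2 without 0 h replicate 1 (-6.75 to 0.91), CLK3 without 0 h replicate 1 (-2.01 to 2.03) and SRPK2 without 24 h replicate 3 (-2.32 to 1.54). CLK2 at 24 h reversed in the locus sum, which adds SCAMP3, and there passed as a fall (-0.24, adjusted p = 0.0423). Other causes were not tested. The lack of read counts per library limits what can be said of transcripts near 0 FPKM.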

Other observations

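Noncoding transcripts of the SR protein genes, the substrates of the CLK and SRPK kinases, were also measured. Of the 10 SR protein genes with both coding and noncoding transcripts, 6 had a higher noncoding share at 24 h and none a lower one (limma, adjusted over 5989 genes), beside 7.65% and 2.97% of all genes; at an unadjusted p under 0.05 these were joined by SRSF6 and SRSF9 (higher) and SRSF11 (lower), beside 17.2% and 8.47% of all genes by that threshold. The median change over the 10 was 12.6 percentage points, against 0.64 over all genes. SRSF1 went from 6.20%, 7.87% and 3.04% to 38.9%, 49.8% and 38.6% (36.7 ± 3.06 points, adjusted p = 0.000427). SRSF5 went from 17.5%, 18.1% and 17.2% to 39.1%, 40.7% and 45.5% (24.2 ± 2.77 points, adjusted p = 0.00127). SRSF3 rose by 21.8 ± 3.07 and SRSF2 by 21.5 ± 3.57 points. SRSF6 changed by 13.2 ± 5.36 points, which did not pass (adjusted p = 0.153), and SRSF4 by -0.08 ± 1.70 points.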
